A study of Homo sapiens with 4 samples.

Results

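The genes described here are 8 components of the death receptor and initiator caspase pathway, measured in K562 cells after 4 h with the drug AC-1041. They were chosen by name, with earlier results of these data known, as TNFRSF10A, TNFRSF10B, FAS, FADD, CFLAR, CASP2, CASP8 and CASP9. Each had 1 probe, and they are 8 of the 14267 genes on the array. K562 is an established human erythroleukemia cell line, and AC-1041 belongs to a group of thalidomide analogs that bind lipid droplets. Drug-treated and control RNA shared each of 4 arrays, with Cy5 on the treated RNA of arrays 1 and 2 and Cy3 on that of arrays 3 and 4. The control is named untreated in the labels and a DMSO vehicle in the methods, and the dose, which only the methods state, is not given here.

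The orientations also differed in noise. Negative control spots had an SD of 226 to 308 intensity units on arrays 1 and 2, but of 27.8 to 40.5 on arrays 3 and 4. Dye orientation and noise therefore cannot be told apart. The cell line matched its erythroid label, since 8 of 8 erythroid markers on the array, among them GATA1, KLF1 and HBG1, stood well above background in the control RNA of all arrays. They moved as well, with 1 higher, 3 lower and 4 not past the threshold defined next (all tested probes: 24.3% higher, 13% lower). GATA1 fell by 0.56 and KLF1 by 0.70 on the log2 scale, while the median over the 8 was 0.35 with Cy5 and -0.77 with Cy3 on the treated RNA. Among markers of other blood cells, CD79A stood well above background on all arrays and MS4A1 on no array. The part of these markers in the results was not tested.

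Death receptors are surface proteins of the TNF receptor family with a death domain inside the cell. TNFRSF10A (DR4) and TNFRSF10B (DR5) bind the ligand TRAIL, and FAS binds the FAS ligand. An engaged receptor recruits the adaptor FADD, which gathers CASP8, and CFLAR (c-FLIP), a relative of CASP8 without protease activity, competes for that complex. CASP9 is started on APAF1 by cytochrome c from damaged mitochondria, CASP2 responds to several stresses, and initiator caspases switch on executioner caspases.

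The probes of FADD, the adaptor, and CFLAR, the competitor of CASP8, are shown because they lie in coding sequence, in the parts that encode the domains by which these proteins join the complex. They are written 5′ to 3′ in lower case as in the array files.
FADD: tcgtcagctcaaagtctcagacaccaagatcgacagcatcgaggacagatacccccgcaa
CFLAR: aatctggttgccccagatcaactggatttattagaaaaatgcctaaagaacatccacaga
The FADD probe lies at chr11:69729948-69730007 of build hg18 (plus strand), where the death domain is encoded. The CFLAR probe lies at chr2:201708976-201709035 (plus strand), where a death effector domain of both the long and the short protein is encoded, so it cannot separate these forms.

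After treatment CASP8, TNFRSF10B, CASP9 and FAS rose, and TNFRSF10A and FADD fell, while CFLAR and CASP2 did not pass the test. A gene was called when the treatment effect in limma, fitted beside a dye effect, had an adjusted p under 0.05. By this rule 4 of 8 genes were higher, against 24.3% of all 8852 tested probes, and 2 of 8 were lower, against 13%. In either direction 6 of 8 were called against 37.4%. Because the genes were chosen with earlier results known, these shares are no test of the set. All of the changes were modest, with a largest fold of 1.53. The median log2 ratio (treated over control) of the 8 genes was 0.15, beside 0.02 for all tested probes. Of the 8 genes, 6 had 1 direction on all 4 arrays, against 23.4% of tested probes, and the same 6 were called, against 19.1% with both. Among called probes alone 1691 of 3307 had 1 direction. The dye effect absorbs the contrast between orientations, so the adjusted p-values rest on arrays of equal orientation, whereas the SD spans all 4. Without it 0 of the 8 genes were called in limma (4 had an unadjusted p under 0.05), and 0.627% of all probes were.

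**Figure D1:**
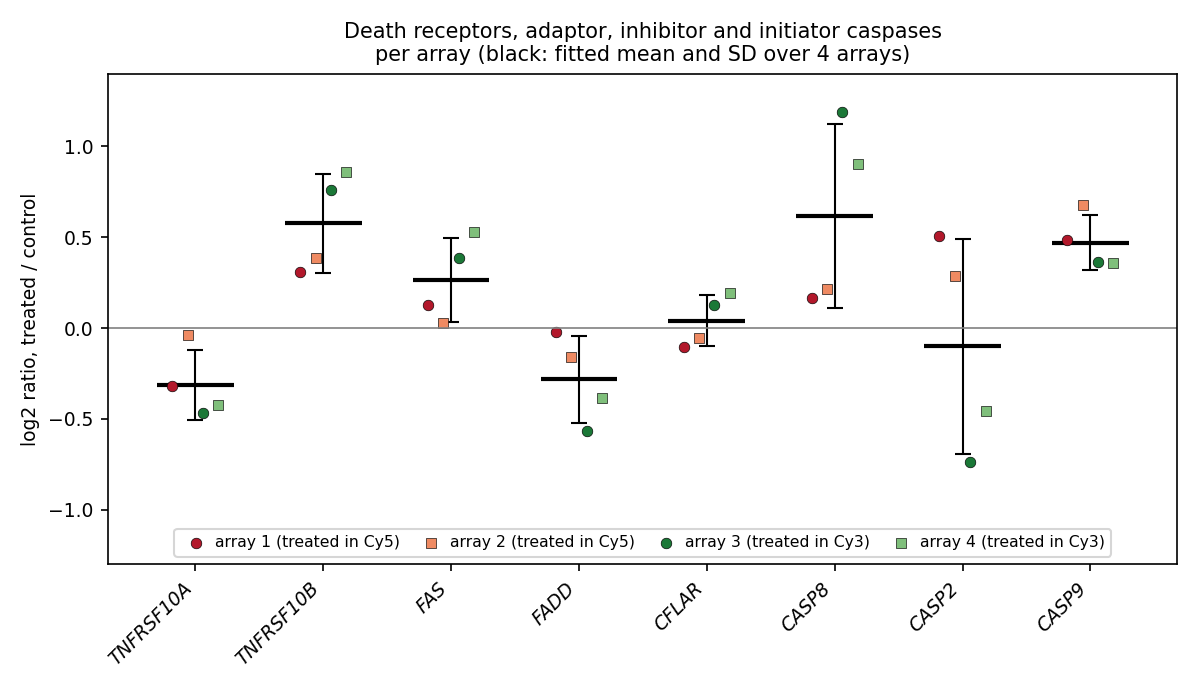
Log2 ratio of treated over control RNA (vertical axis) of the 8 genes on each of the 4 arrays, with the fitted mean as a bar and the SD over arrays as whiskers. TNFRSF10B, FAS, CASP8 and CASP9 lie above 0 on every array, TNFRSF10A and FADD below 0, and CFLAR and CASP2 on both sides.

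The TRAIL receptors moved in opposite directions. TNFRSF10B had scanned intensities, before normalization, of 4448, 6691, 5048 and 5521 in treated RNA and of 3474, 3338, 2683 and 3052 in control RNA on arrays 1 to 4. Treated RNA was brighter every time, and the normalized log2 ratios were 0.31, 0.38, 0.76 and 0.86. TNFRSF10B thus rose by 0.58 ± 0.27 (SD, n = 4 arrays) on the log2 scale, or 1.49-fold (limma standard error 0.065, adjusted p = 0.00032). TNFRSF10A had log2 ratios of -0.32, -0.04, -0.47 and -0.43, and array 2 was nearest to 0. It fell by 0.31 (SD 0.19, n = 4 arrays; limma adjusted p = 0.011). Before normalization treated RNA was the brighter for TNFRSF10A on array 2, at 3054 against 2090, and the dimmer on the other arrays. The probes lie on chromosome 8 of hg18, at 23105198 to 23105257 for TNFRSF10A and 22933721 to 22933780 for TNFRSF10B, both on the minus strand.

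TNFRSF10B exceeded TNFRSF10A by 0.62, 0.42, 1.22 and 1.28 in log2 ratio on arrays 1 to 4, with a mean of 0.89 ± 0.43 (SD, n = 4). The exact sign-flip permutation test over arrays (two-sided) gave p = 0.125, which is the smallest that 4 arrays allow. This was 1 of 4 pairs compared, all chosen after their values were seen, and the p adjusted over the 4 by Benjamini-Hochberg was 0.167. The call of TNFRSF10A was lost without array 3 (-0.30, adjusted p = 0.088), without array 4 (-0.32, adjusted p = 0.087) and with median centring (-0.19, adjusted p = 0.13), and its limma adjusted p ran from 0.00013 to 0.35 over 14 alternatives. TNFRSF10B kept its call without any single array, and its adjusted p ran from 3.5e-08 to 0.15.

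FAS was dim, with scanned intensities of 431, 876, 404 and 414 in treated RNA and 428, 727, 295 and 294 in control RNA. Only arrays 3 and 4 measured it well above background. Its log2 ratios of 0.13, 0.03, 0.38 and 0.53 lay above 0 throughout and were lowest on the arrays that measured it poorly. The rise was 0.27 ± 0.23 (SD, n = 4 arrays; limma adjusted p = 0.015). It lost its call without array 3 (0.30, adjusted p = 0.07) or array 4 (0.23, adjusted p = 0.16), and the adjusted p ran from 0.00012 to 0.64 over 13 alternatives. The log2 ratio of FAS was 0.69 with the processed signals of Feature Extraction and 0.74 in the values of the series, both past the threshold. Its probe covers bases 90764525 to 90764584 of chromosome 10.

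FADD, the adaptor, had log2 ratios of -0.02, -0.16, -0.57 and -0.38, with array 1 almost at 0. Before normalization treated RNA was the brighter on arrays 1 and 2, at 2675 against 2619 and 3314 against 2424, and the dimmer on arrays 3 and 4, at 1864 against 2445 and 2204 against 2832. It fell by 0.28 on the log2 scale (SD 0.24, n = 4 arrays; limma adjusted p = 0.014). The call was lost without array 3 (-0.24, adjusted p = 0.13), without array 4 (-0.33, adjusted p = 0.067) and with median centring (-0.16, adjusted p = 0.17), within a range of 7.9e-05 to 0.58 over 14 alternatives.

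CFLAR, the competitor of CASP8, had log2 ratios of -0.10 and -0.05 on arrays 1 and 2 and of 0.13 and 0.19 on arrays 3 and 4, so that its direction split with the dye. The mean was 0.04 ± 0.14 (SD, n = 4 arrays; limma adjusted p = 0.65), and the 95% interval from -0.11 to 0.19 leaves room for a small change either way.

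**Figure D2:**
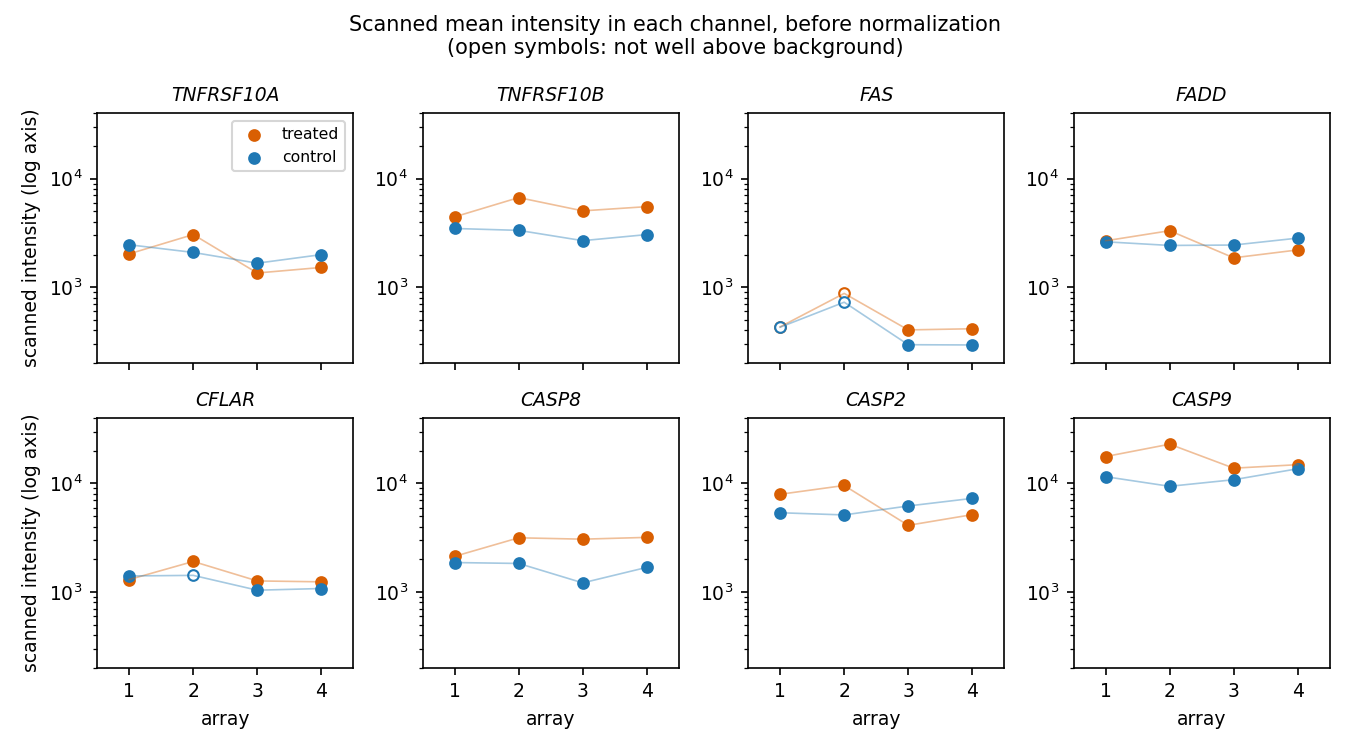
Scanned mean intensity (log axis, scanner units) of treated and control RNA on each array before background correction and normalization. Open symbols mark values not well above background, as for FAS on arrays 1 and 2 and for the control RNA of CFLAR on array 2.

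CASP8, the protease of the death receptor complex, had the highest fitted mean of the 8 genes, although FAS was above it with processed signals and in the series values, TNFRSF10B without array 3, and CASP9, CASP2 and TNFRSF10B on arrays 1 and 2 alone. Its scanned intensities were 2130, 3156, 3065 and 3184 in treated RNA and 1867, 1831, 1213 and 1685 in control RNA. The log2 ratios of 0.17, 0.21, 1.19 and 0.90 were low on arrays 1 and 2 and high on arrays 3 and 4. They gave a mean of 0.62 ± 0.51 (SD, n = 4 arrays), or 1.53-fold (limma adjusted p = 0.00038). CASP8 kept its call without any single array, and its adjusted p ran from 9.8e-10 to 0.28 over 14 alternatives. CASP8 exceeded CFLAR by 0.27, 0.27, 1.06 and 0.71 in log2 ratio (mean 0.58) and FADD by 0.19, 0.37, 1.75 and 1.29 (mean 0.90). The exact sign-flip permutation test (two-sided) gave p = 0.125 for each, or 0.167 adjusted.

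CASP9, the initiator of the mitochondrial route, had log2 ratios of 0.49, 0.68, 0.36 and 0.36. The mean was 0.47 ± 0.15 (SD, n = 4 arrays), a 1.39-fold rise (limma adjusted p = 0.0011), and this SD was the lowest among the 6 called genes. CASP9 was also the only one of the 6 that passed the threshold within each orientation, at 0.58 on arrays 1 and 2 (adjusted p = 0.011) and 0.36 on arrays 3 and 4 (adjusted p = 0.0011). Its adjusted p ran from 6.9e-06 to 0.15 over 14 alternatives. The means of CASP8, TNFRSF10B and CASP9 lay closer together than the SD of CASP8.

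CASP2 had log2 ratios of 0.50, 0.29, -0.73 and -0.46, high with Cy5 and low with Cy3 on the treated RNA. The mean was -0.10 ± 0.59 (SD, n = 4 arrays; limma adjusted p = 0.34), with a 95% interval from -0.28 to 0.07. Within the orientations it passed the threshold in opposite directions, at 0.40 (adjusted p = 0.04) and -0.60 (adjusted p = 6.1e-06), so these arrays give CASP2 no settled direction. CASP9 minus CASP2 was -0.02 on array 1 and above 0 on 3 of 4 arrays, with a mean of 0.57 ± 0.49 (SD, n = 4; exact sign-flip permutation test, two-sided p = 0.25, also after adjustment over the 4 pairs). The limma adjusted p of CASP2 itself ran from 6.1e-06 to 0.94 over 14 alternatives. The caspase probes lie on chromosome 2 for CASP8 (201860083 to 201860142), chromosome 1 for CASP9 (15691566 to 15691625) and chromosome 7 for CASP2 (142714115 to 142714174).

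The effect of orientation passed the threshold in 5 of 8 genes, a share near the 58.2% of all tested probes. The log2 ratio with Cy5 on the treated RNA minus that with Cy3 was 0.99 for CASP2 (adjusted p = 0.00086), -0.86 for CASP8 (0.0014), -0.46 for TNFRSF10B (0.015), -0.38 for FAS (0.038) and 0.38 for FADD (0.041). CFLAR and CASP2, 2 of 8, pointed in opposite directions in the orientations, as did 41.3% of tested probes. A limma fit to arrays 1 and 2 alone called 2 of 8 genes, CASP9 and CASP2, beside 33.6% of probes. TNFRSF10B was at 0.34 there (adjusted p = 0.053) and CASP8 at 0.19 (adjusted p = 0.23). A fit to arrays 3 and 4 alone called 7 of 8, all but CFLAR, beside 69.7% of probes. Each of these fits rests on 2 arrays.

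**Figure D3:**
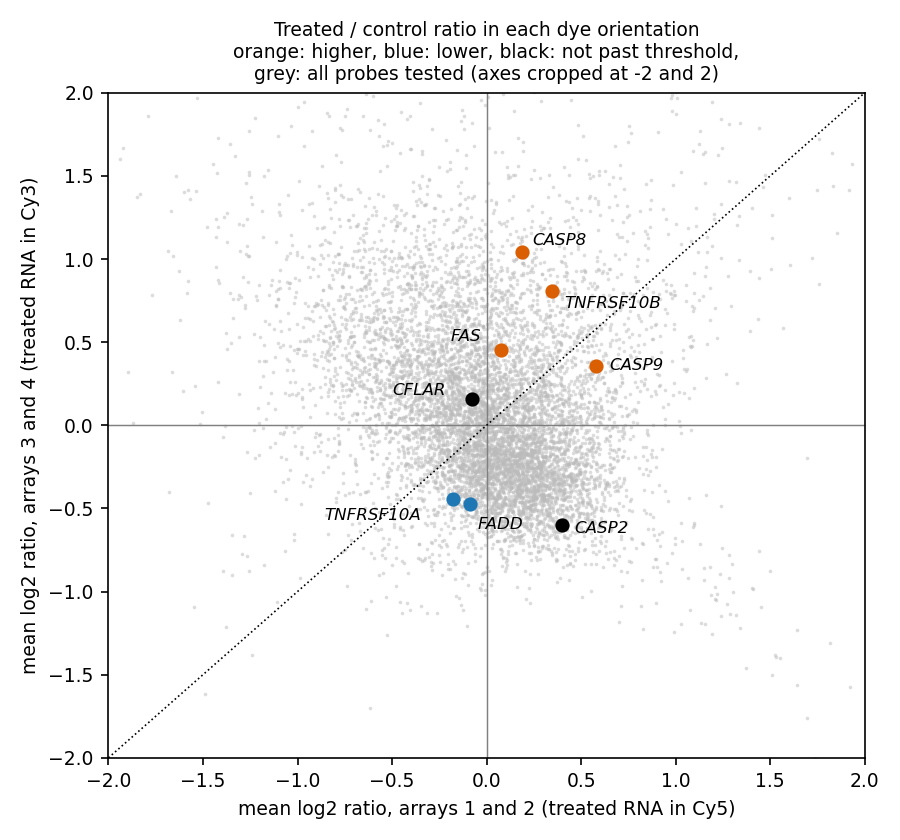
Mean log2 ratio with Cy5 on the treated RNA (horizontal axis, arrays 1 and 2) against that with Cy3 (vertical axis, arrays 3 and 4) for all tested probes in grey and the 8 genes by name. The dotted line marks equal ratios, CASP9 is the nearest to it of the genes that rose, and CASP2 lies above 0 on one axis and below 0 on the other.

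Some of the members are neighbours in the genome, which was not used to choose them. In the RefSeq order of protein-coding genes CFLAR, CASP10 and CASP8 follow each other on chromosome 2, with log2 ratios of 0.04, 0.42 and 0.62. CASP10, a close relative of CASP8, was called (adjusted p = 0.0024) but stood well above background on 2 arrays only. It was at 0.15 on arrays 1 and 2 alone, not past the threshold (adjusted p = 0.37, within a range of 5.2e-07 to 0.37 over 13 alternatives), and at 0.68 on arrays 3 and 4 alone. On chromosome 8 the order is TNFRSF10B, TNFRSF10C, TNFRSF10D and TNFRSF10A. TNFRSF10C and TNFRSF10D, decoys that bind TRAIL without a working death domain, were not well above background on any array and could not be tested.

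Around these members, 7 lists, also chosen with earlier results known, name 51 more genes of the pathway. Of these genes 46 were on the array and 34 could be tested. Among the 34, 15 rose and 3 fell, which is 52.9% against the 37.4% of all probes, and the median log2 ratio was 0.13. Fewer were called without array 3 or array 4, as was the case for all probes. Without array 3, 8 rose and 2 fell of 31 tested, beside 1241 and 439 of all probes, and RIPK1, PEA15, CASP6, DIABLO, XIAP and NOL3 were among those that lost their calls, at log2 ratios of 0.23 to 0.45 (limma adjusted p from 0.051 to 0.14). Without array 4, 8 rose and 1 fell of 31, beside 1008 and 283 of all probes, and RIPK1, CASP6, DIABLO, XIAP, BIRC2 and NOL3 were among those that lost theirs, at 0.22 to 0.32 (adjusted p from 0.067 to 0.21), together with ENDOG at -0.15 (adjusted p = 0.36).

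Ligands were scarcely measured. Of 8 ligands and decoy receptors, 5 were not well above background in treated RNA on any array, FASLG among them, and TNFSF10, which encodes TRAIL, stood well above background on only 1 array in each channel. The only one tested, TNFRSF6B, a decoy for the FAS ligand, had a log2 ratio of 0.08 (limma adjusted p = 0.39). Of 3 other receptors of the TNF family tested, 1 rose, 1 fell and 1 did not pass (all tested probes: 24.3% higher, 13% lower). TNFRSF21 (DR6), a death receptor, rose by 0.61 ± 0.52 (SD, n = 4 arrays; adjusted p = 0.0012), with array 3 at -0.02. It was at 1.02 on arrays 1 and 2, and on arrays 3 and 4 alone it did not pass (0.20, adjusted p = 0.077). Nor did it pass in the series values (0.46, adjusted p = 0.061), and its limma adjusted p ran from 8.4e-07 to 0.29 over 13 alternatives. In control RNA TNFRSF21 stood well above background on 3 of 4 arrays. TNFRSF1B, a TNF receptor that lacks a death domain, fell by 0.62 (SD 0.57; adjusted p = 0.00027), but was at -0.12 on arrays 1 and 2 alone (adjusted p = 0.44, within a range of 1.7e-10 to 0.44 over 13 alternatives). It stood well above background on 3 of 4 arrays in each channel. TNFRSF1A, the TNF receptor that has a death domain, was at 0.23 (adjusted p = 0.098).

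Of 5 other caspases tested 4 rose and 1 fell, beside 24.3% higher and 13% lower among all tested probes. CASP6, an executioner, had log2 ratios of -0.15, 0.34, 0.47 and 0.66, with array 1 below 0. It rose by 0.33 ± 0.35 (SD, n = 4 arrays; limma adjusted p = 0.022), and its call was also lost without array 2 (0.20, adjusted p = 0.051), within a range of 9.7e-06 to 0.64 over 14 alternatives. CASP4, an inflammatory caspase, fell by 0.40 (adjusted p = 0.012) over 3 arrays, since its spot on array 1 was marked. With marked spots kept it was at -0.22 (adjusted p = 0.18) and with median centring at -0.28 (adjusted p = 0.055), neither past the threshold, and its adjusted p ran from 2.8e-06 to 0.33 over 9 alternatives.

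APAF1, the scaffold of CASP9, had log2 ratios of 0.57, 0.88, 1.35 and 1.49. It rose by 1.07 ± 0.43 (SD, n = 4 arrays), or 2.11-fold (limma adjusted p = 3.5e-05). In control RNA it stood well above background on 3 of the 4 arrays. Of the 7 apoptosome and mitochondrial genes 2 rose, 1 fell and 4 did not pass (all tested probes: 24.3% higher, 13% lower). DIABLO, an antagonist of caspase inhibitors, rose by 0.22 ± 0.12 (SD; adjusted p = 0.026), but missed the threshold in 8 of 14 alternatives, each orientation alone among them (adjusted p from 0.015 to 0.46). ENDOG, a mitochondrial nuclease, fell by 0.26 (SD 0.25; adjusted p = 0.041), but missed the threshold in 6 of 14 alternatives, median centring (-0.19) and arrays 1 and 2 alone (-0.11) among them (adjusted p from 0.001 to 0.49). BID, which relays the CASP8 signal to mitochondria, was at 0.06 and CYCS, cytochrome c, at -0.07 (both with an adjusted p of 0.53), each with opposite directions in the orientations.

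Among 7 adaptors and modulators tested 3 rose, against 24.3% of all tested probes, and 4 did not pass. CASP8AP2, which binds CASP8 and also takes part in histone gene transcription, had log2 ratios of 0.27, 0.55, 0.97 and 0.99, with a mean of 0.70 ± 0.34 (SD, n = 4 arrays; limma adjusted p = 0.00021). PEA15, a death effector domain protein, rose by 0.48 ± 0.25 (SD; adjusted p = 0.0047) and RIPK1, a kinase of the TNF receptor complex, by 0.32 ± 0.29 (SD; adjusted p = 0.0052). RIPK1 was at 0.57 on arrays 1 and 2 but at 0.07 on arrays 3 and 4, where it did not pass (adjusted p = 0.5, within a range of 0.00094 to 0.5 over 14 alternatives). The adaptors TRADD and TRAF2 were at 0.13 and 0.12 (adjusted p = 0.15 and 0.3).

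Of 8 caspase inhibitors tested 5 rose, against 24.3% of all tested probes. Only 1 of these 5 had 1 direction on all 4 arrays. Of the 8 tested, 5 pointed in opposite directions in the orientations, against 41.3% of all tested probes. BIRC3 (cIAP2) rose by 0.81 ± 0.83 (SD, n = 4 arrays), NAIP by 0.55 ± 0.67, BIRC2 (cIAP1) by 0.35 ± 0.51, NOL3 by 0.28 ± 0.15 and XIAP by 0.26 ± 0.33, each with its SD over 4 arrays. The limma adjusted p was 0.00045, 0.00049, 0.0037, 0.021 and 0.015 in this order. BIRC3, NAIP and XIAP stood well above background on arrays 3 and 4 only. XIAP was at 0.52 with processed signals and 0.57 in the series values, and with median centring at 0.22 (adjusted p = 0.06, within a range of 1.2e-05 to 0.87 over 13 alternatives), which did not pass. With Cy5 on the treated RNA the mean log2 ratios were 0.12 for BIRC3 and -0.09, -0.03 and -0.03 for BIRC2, NAIP and XIAP, against 1.49, 0.79, 1.12 and 0.54 with Cy3. NOL3, which blocks the assembly of death receptor complexes, lay above 0 on all arrays. NAIP has near-identical copies in the genome, so its probe may read several. BIRC5 (survivin) was at 0.02 (adjusted p = 0.87). The caspase substrates DFFA, DFFB and PARP1 had log2 ratios of 0.09, -0.01 and -0.12 (adjusted p = 0.41, 0.91 and 0.37). Of the 3, 0 passed, against 37.4% of all tested probes.

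**Figure D4:**
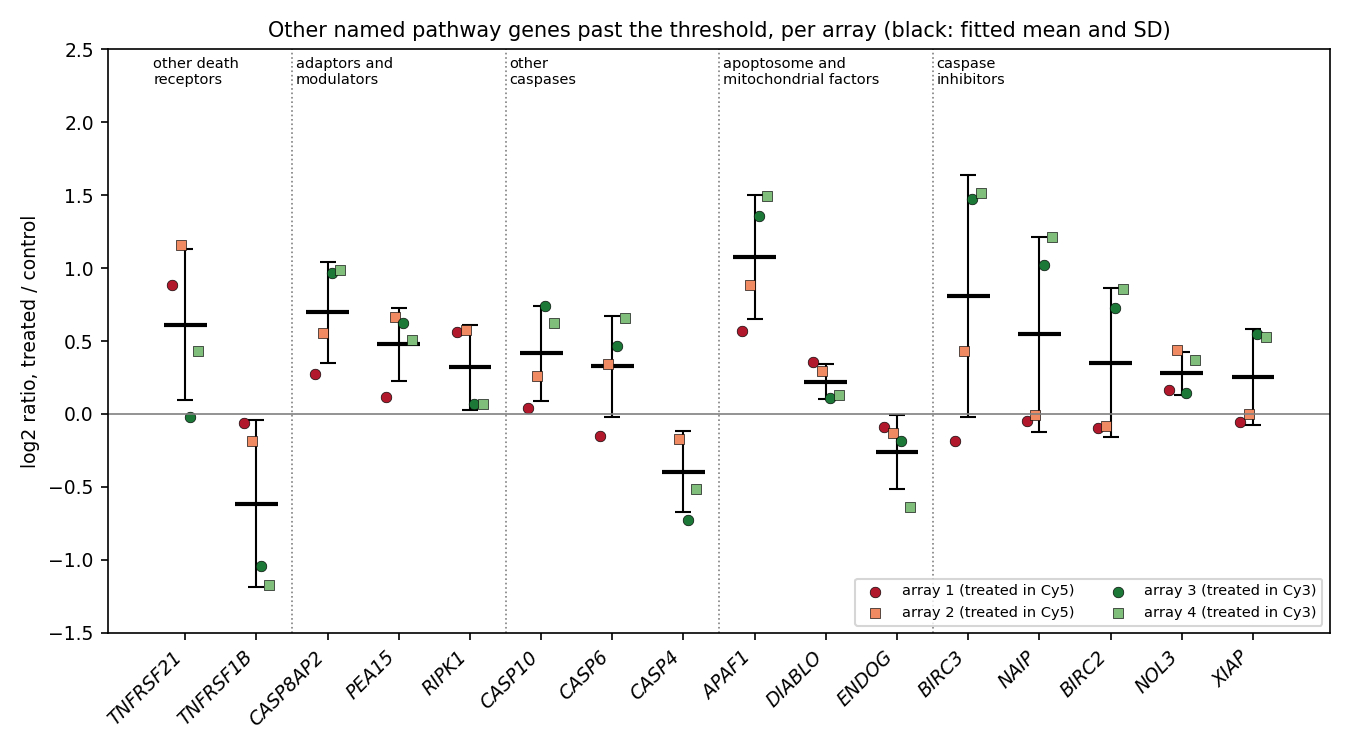
Log2 ratio of treated over control RNA (vertical axis) on each array for the other pathway genes named here as past the threshold, grouped by list, with the fitted mean and the SD over arrays (CASP4 has 3 arrays). APAF1 has the highest mean and lies above 0 on every array, and NAIP and BIRC2 lie below 0 on arrays 1 and 2.

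DDIT3 (CHOP), a transcription factor of the ER stress response known to act on TNFRSF10B, is outside the lists. Its log2 ratios were 1.58, 2.09, 1.42 and 1.46, so that it rose in both orientations. The mean was 1.64 ± 0.31 (SD, n = 4 arrays), or 3.11-fold (limma adjusted p = 1.2e-05), and it kept its call under all 14 alternatives, with adjusted p-values up to 0.027.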

How the data were processed

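Quadruplicate two-colour Agilent arrays were scanned and quantified by the authors with Feature Extraction 9.5.1.1. The deposited intensity values are each spot's mean and the median of its local background, in both channels. The deposited log10 ratio of the dyes, the authors' processed intensities and a log10 table of the series served as alternatives. That table matched the files once the sign was turned on arrays 3 and 4, which gives treated over control.

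Background was corrected by normexp (offset 50) and each array normalized by loess (span 0.3). Control spots and spots marked as non-uniform or population outliers had weight 0, and marked spots were then dropped. A probe was tested when it stood well above background in a channel of 2 or more arrays and its unmarked spots sufficed for the fit. This left 8852 of 14297 probes, against 9191 with marked spots kept. Terms for treatment and for dye were fitted in limma 3.58.1 (R 4.3.3), and p-values were adjusted by Benjamini-Hochberg over every tested probe, with a threshold of 0.05. The fit was tested on simulated data. Samples were collected in quadruplicate by the authors, but how they were assigned to the arrays and whether they were separate cultures is not given in the sources used here. The p-values of the fit with a dye term therefore measure the spread between arrays of equal orientation, and not a known spread between cultures. The number of arrays limits the precision.

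The 8 genes were matched by the name in the files. Other genes were named by transcript accession through RefSeq (GRCh38.p14, used for names and gene order), which named 12002 probes. Members and gene lists were chosen with earlier results of these data known. The text names all members, each gene of the 7 pathway lists past the threshold except a few that are not reported here, and DDIT3. List counts cover all tested genes. Other genes were singled out after their values were seen. Alternatives changed the background correction, normalization, dim probes, marked spots, dye term, dye orientation and arrays included.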

Additional observations from a re-analysis of the deposited data

Results flagged for a closer look

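ENDOG, a mitochondrial nuclease, had log2 ratios of -0.09, -0.13 and -0.18 on arrays 1 to 3 and of -0.64 on array 4. The step from array 4 to its nearest neighbour took up 0.833 of the spread of the 4 arrays, just past the 95% limit of Dixon's test for 4 values. It was the only one so marked of 26 genes looked at, and chance marks about 1 gene in 20.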

How the results depend on the processing

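With no background subtraction, no filter on dim probes or marked spots kept, all 8 members kept direction and call. No setting moved the median of all probes by over 0.1. Of called probes 65.2% were higher, against 46.2% with Feature Extraction's processed signals, 79.5% with median centring and 92.9% without the dye term. The 2155 probes called higher became 1434 with processed signals, 1342 of 5587 tested when both channels had to stand well above background on all arrays, 52 without the dye term, 1323 on arrays 1 and 2 alone and 3392 on arrays 3 and 4 alone. The 1152 called lower became 589 with median centring, 4 without the dye term and 2781 on arrays 3 and 4 alone. Leaving out 1 array gave 1008 to 2590 higher and 283 to 1469 lower. Among members, 0 were higher without the dye term and 2 on arrays 1 and 2 alone, and 0 were lower with median centring, without the dye term, on arrays 1 and 2 alone, and without array 3 or array 4 (2 without array 1 or array 2). When 1 array was left out, 2 to 5 members had a dye effect past the threshold. Of the pathway lists 9 of 23 tested genes were higher with both channels well above background and 0 without the dye term (9 at an unadjusted p under 0.05), and 1 was lower with median centring, 1 with marked spots kept, 0 without the dye term and 8 on arrays 3 and 4 alone. Leaving out 1 array gave 8 to 17 higher and 1 to 3 lower.

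Without the dye term the log2 ratios of TNFRSF10A, TNFRSF10B, FAS, FADD, CASP8 and CASP9 were as before, at -0.31, 0.58, 0.27, -0.28, 0.62 and 0.47, but none passed the threshold in limma. On arrays 1 and 2 alone TNFRSF10A was at -0.18, TNFRSF10B at 0.34, FAS at 0.076, FADD at -0.090 and CASP8 at 0.19, none of them past it, and CFLAR (-0.079), CASP2 (0.40), XIAP (-0.029), BIRC2 (-0.089) and NAIP (-0.028) changed sign. On arrays 3 and 4 alone CASP2 was at -0.60 and passed. Median centring gave -0.19 for TNFRSF10A and -0.16 for FADD, no longer past it, and 0.011 for CASP2. CFLAR was at -0.063 with processed signals and -0.015 in the series values. Leaving out 1 array moved TNFRSF10A from -0.38 to -0.24, FAS from 0.23 to 0.30 and FADD from -0.33 to -0.24. The cause was not tested for any of these. FAS and CFLAR could not be fitted with both channels well above background, nor CASP4 on arrays 1 and 2 alone or without array 2, 3 or 4. A block for slide or scan was not run, since all arrays shared both. The ratios are paired within each array by design, so no further block was fitted. Of the 19 other genes listed by the rule for named genes, 5 lost their call with median centring and 5 in the series values, and on arrays 1 and 2 alone 6 of the 18 that could be fitted kept it.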
